A study of Mus musculus with 16 samples.

Results

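The 68 genes described here encode spliceosome subunits and splicing regulators of the mouse. They were taken by symbol as every gene named Sf3a or Sf3b with a digit, Srsf with a number, or starting with Snrp, Prpf, U2af or Hnrnp, out of 22675 genes counted over coding sequence in both deposited tables. Single genes were chosen by symbol and selected on no measured value, but the families were picked with earlier results of these data known, in which Sf3a2 was among the largest falls between the genotypes. The values of Sf3a2 are therefore given as a description with no test. By class, the list held 12 Sm and snRNP core proteins, 9 SF3a and SF3b subunits, 3 U2AF genes, 13 PRPF factors, 11 SR proteins and 20 hnRNP proteins.

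Expression was measured by Smart-seq2 RNA sequencing of about 1000 sorted spleen cells per library, in 4 groups of 4 libraries from C57BL/6 mice. Every group carried AID-Cre, the B1-8hi heavy chain and GFP, and had been immunized with NP-OVA, LPS and alum 7 days before. KOTP libraries were tdTomato-positive cells of mice homozygous for the ZSDAT allele of Zfp318 (Zfp318ZSDAT/ZSDAT), and HetTP libraries were tdTomato-positive cells of mice with 1 copy (Zfp318ZSDAT/+). KOTN libraries were the tdTomato-negative cells of homozygous mice, and HetTN libraries those of heterozygous mice. All cells had been sorted as B220-positive, CD38-positive and NIP-binding, without surface IgD, CD138, GL7 or FAS, and the series asked how memory-phenotype B cells with and without Zfp318 differ. The labels do not say what AID-Cre acts on in these mice, nor whether a group's libraries are from different mice, and p-values are therefore relative to the variation among the libraries sequenced.

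The spliceosome removes introns from pre-mRNA. The U1 snRNP, which holds the protein encoded by Snrpc, pairs with the start of the intron, U2AF binds its end, and the SF3a and SF3b complexes of the U2 snRNP fix the branch point, after which the U4/U6.U5 tri-snRNP with many of the PRPF proteins joins. SR proteins mostly bind exons and favour their inclusion, while many hnRNP proteins oppose it. In B cells such regulators also set the choice between alternative forms of CD45 and of immunoglobulin heavy chain RNA.

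Coding sequence is shown for Sf3a2, which had the lowest fold changes between the genotypes, and for Sf3b1. Sf3b1 was the 1 gene called higher in KOTP cells, though not the gene with the highest fold change. Neither gene is at an end of the list by GC content, which is set beside fold change further on. The windows of 90 bases were read from GRCm38 on the gene's own strand and have the GC content nearest to that of the whole coding sequence. G and C are in capitals. The Sf3a2 window lies at chr10:80801234-80801323 on the plus strand, and the Sf3b1 window at chr1:55019301-55019390 on the minus strand.
Sf3a2: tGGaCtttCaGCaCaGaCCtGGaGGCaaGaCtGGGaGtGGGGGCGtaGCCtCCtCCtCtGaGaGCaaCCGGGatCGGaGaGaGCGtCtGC
Sf3b1: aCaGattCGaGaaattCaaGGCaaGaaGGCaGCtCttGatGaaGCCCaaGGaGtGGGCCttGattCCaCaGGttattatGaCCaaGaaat

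Promoter windows of 300 bases around the start of transcription given by RefSeq are shown for Sf3a2 (chr10:80798485-80798784, plus strand) and Hnrnpl (chr7:28810640-28810939, plus strand), since both genes were low in both homozygous groups. They are from RefSeq on GRCm38.p6. GENCODE M21 starts both genes further upstream, outside these windows, and the DNA at those starts was not searched. Capitals mark, on either strand, CCGGAAG and TGCGCA in Sf3a2 and CCAAT in Hnrnpl.
Sf3a2 promoter: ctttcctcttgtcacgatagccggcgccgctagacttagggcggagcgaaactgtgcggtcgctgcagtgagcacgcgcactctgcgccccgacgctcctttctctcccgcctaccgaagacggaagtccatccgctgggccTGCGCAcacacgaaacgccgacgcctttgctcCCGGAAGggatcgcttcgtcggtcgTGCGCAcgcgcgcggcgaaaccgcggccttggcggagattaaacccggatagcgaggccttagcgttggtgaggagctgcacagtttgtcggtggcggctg
Hnrnpl promoter: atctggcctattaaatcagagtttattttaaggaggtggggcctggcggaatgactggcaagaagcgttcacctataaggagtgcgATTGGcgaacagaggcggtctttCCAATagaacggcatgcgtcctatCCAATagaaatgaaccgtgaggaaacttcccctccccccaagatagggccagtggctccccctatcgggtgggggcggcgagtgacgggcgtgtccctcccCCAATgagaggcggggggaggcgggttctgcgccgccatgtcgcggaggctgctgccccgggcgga
Of the 68 genes, 59 had such a window. CCGGAAG, the core bound by ETS factors, was found for 20 of the 59 (33.9%), and for 9.93% of all 27025 genes with a window. TGCGCA, a part of the NRF1 motif, was also found for 20 (33.9%), and for 8.79% of all such genes. CCAAT was found for 30 (50.9%) and for 41.1% of all such genes, and CACGTG for 9 (15.3%) and for 8.09%. The motifs were searched on both strands and do not overlap one another in the windows shown. Of the 7 genes lower in both homozygous groups, 4 had a window, and CCGGAAG was in 3 of these, in Sf3a2, Sf3a1 and Snrpc.

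Levels are given as CPM, per-million counts of the library's total over coding sequence, which ranged from 7748787 to 15742445. Fold changes are from TMM-scaled counts. The check of the targeted gene fitted the labels, with Zfp318 between 0.446 and 5.42 CPM in the 8 homozygous libraries and between 78.8 and 152 CPM in the 8 heterozygous libraries. Of 7 B cell markers, edgeR called 5 higher and 2 lower in KOTP cells, and 4 higher and 2 lower in KOTN cells, with Cd38 higher and Pax5 and Cd74 lower in both. Their sum ranged from 23472 to 29822 CPM in KOTP against 30262 to 33433 CPM in HetTP libraries, and from 25983 to 27498 CPM in KOTN against 31187 to 41169 CPM in HetTN libraries, without overlap. Of the genes tested, 1.56% to 2.34% were at 0 in a KOTP library against 7.02% to 11.2% in a HetTP library, and 1.52% to 1.73% in a KOTN library against 11.7% to 13.6% in a HetTN library. The mitochondrial share of counts was 1.48% to 1.63% in KOTP and 1.27% to 2.60% in HetTP libraries, which overlapped, and 1.44% to 1.61% in KOTN against 2.65% to 4.26% in HetTN libraries. The part of these differences in the results was not tested. Heterozygous libraries were far more variable than homozygous ones. Over the 62 genes tested, the median coefficient of variation was 9.48% in KOTP and 21.97% in HetTP libraries, and 9.25% in KOTN and 21.4% in HetTN libraries. Over all tested genes it was 18.0% in KOTP and 45.04% in HetTP libraries, and 17.8% in KOTN and 53.6% in HetTN libraries. Each genotype has its own deposited table, and the counts deposited per mapped read are 0.369 to 0.419 in the homozygous table, against 1.35 to 1.5 in the heterozygous one. Genotype cannot be told apart from any difference in how the libraries of the tables were prepared or counted.

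Many markers of other cells were lower in homozygous cells, but not all of them. Of 4 T cell markers tested, edgeR called 2 lower in KOTP and 2 in KOTN cells. Of 12 macrophage and monocyte markers it called 6 and 7 lower, and of 5 plasma cell markers 2 and 1. None was called higher. Adgre1, a macrophage marker, had log2 fold changes above 0, at 2.01 and 1.82, and was not called. Summed T cell markers ranged from 33.9 to 47.8 CPM in KOTP against 206 to 676 CPM in HetTP libraries, and from 26.3 to 35.5 CPM in KOTN against 221 to 537 CPM in HetTN libraries. Of the 8 T cell markers, Cd4 and Cd28 were at 0 in every group, and Cd3e and Cd8a were at 0 in both homozygous groups. Summed macrophage and monocyte markers ranged from 79.8 to 107 CPM in KOTP against 148 to 828 CPM in HetTP libraries, and from 108 to 155 CPM in KOTN against 493 to 1405 CPM in HetTN libraries. Plasma cell markers summed to 74.8 to 109 CPM in KOTP against 260.5 to 359 CPM in HetTP libraries, and to 103 to 209.6 CPM in KOTN against 263 to 842 CPM in HetTN libraries. The part of these cells in the genotype differences was not tested. In bulk samples, fewer cells of a type and less RNA per cell cannot be told apart.

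In KOTP cells, 15 of the 62 genes tested were lower than in HetTP cells and 1 was higher, by edgeR's quasi-likelihood test with Benjamini-Hochberg adjustment over all 10687 genes tested and a threshold of 0.05. Across all genes the same rule called 5.22% lower and 5.06% higher, against 24.2% lower and 1.61% higher on the list. The 24.2% holds Sf3a2, whose fall was known when the families were picked, and the 1.61% is 1 gene. Whether these shares differ beyond chance was not tested. The median log2 fold change was -0.18 over the 62 genes and -0.03 over all genes. In KOTN cells, 11 of the 62 were lower than in HetTN cells and 3 were higher, 17.7% and 4.84% of the list, where the same rule called 4.88% of all genes lower and 5.61% higher. The median log2 fold change was -0.25 over the 62 genes and 0.00 over all genes. The genes of the list had more counts and varied less than genes at large, with a median of 6.88 on the log2 CPM scale, against 4.48 over all tested genes, and the weight of this in the counts was not tested.

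Without Sf3a2 the counts of lower genes were 14 in KOTP and 10 in KOTN cells. The comparisons of the genotypes share no library. Lower in both were Sf3a2 and 6 others, Sf3a1, Sf3b4, U2af2, Snrpc, Snrpd1 and Hnrnpl. The 6 are 9.84% of the 61 genes tested beside Sf3a2, where 2.72% of all genes tested were lower in both. They are 42.9% of the 14 lower in KOTP cells and 60.0% of the 10 lower in KOTN cells, near the 52.2% and 55.9% that the genes lower in both make up over all genes. Of the 62 genes, 34 had a negative fold change in both comparisons and 10 a positive one in both. Without scaling factors, the median fold change of all genes moved to -0.25 in KOTP over HetTP, and 25 of the 62 genes were then called lower and 0 higher, with 8.56% of all genes called lower. With upper quartile scaling, 59.6% of the calls over all genes were higher in KOTP cells, against 49.2% with TMM, and 63.5% were higher in KOTN cells, against 53.5% with TMM. The list's own split was then 1 higher and 15 lower in KOTP cells, and 5 higher and 9 lower in KOTN cells.

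**Figure D1:**
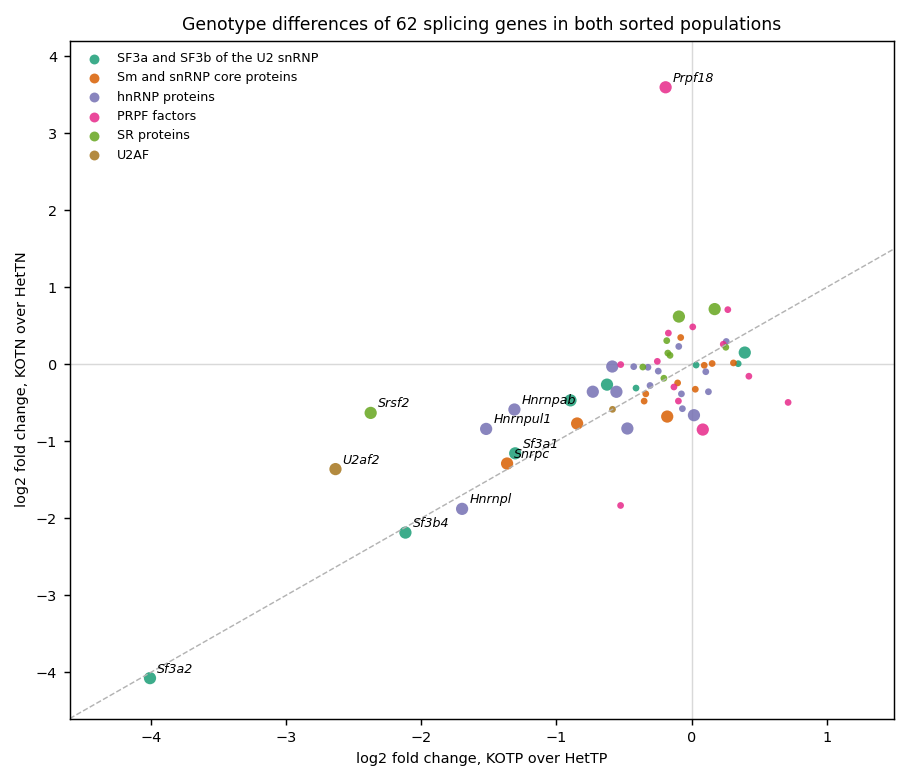
Log2 fold change of KOTP over HetTP (x axis) and of KOTN over HetTN (y axis) for the 62 genes tested, coloured by class, with large points called in at least 1 of the comparisons, names on the called genes farthest from 0 and a dashed line of equal values. Sf3a2 lies at -4.01 and -4.08 at the lower left, Srsf2 and U2af2 are further from 0 in the tdTomato-positive cells, and Prpf18 is high in KOTN over HetTN only, at 3.60.

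Of the SF3a and SF3b subunits, 5 of 9 were lower and 1 was higher in KOTP cells, and in KOTN cells 3 of 9 were lower. Across all genes 5.22% were lower and 5.06% higher in KOTP cells, and 4.88% were lower in KOTN cells. Both counts of lower subunits hold Sf3a2, whose fall was known beforehand and which is described with no test. Sf3a2, an SF3a subunit with a zinc finger domain, had 8.52, 6.76, 2.06 and 4.47 CPM in KOTP libraries, against 105, 93.1, 96.7 and 113 CPM in HetTP libraries. It had 7.49, 2.67, 3.87 and 3.97 CPM in KOTN libraries, against 108, 89.4, 76.7 and 52.5 CPM in HetTN libraries. The highest of the 8 homozygous libraries, KOTP 1 at 8.52 CPM, was far below the lowest of the 8 heterozygous ones, HetTN 4 at 52.5 CPM. The gene lies at chr10:80798198-80804924 (GRCm38, plus strand), shares no coding base with another gene in GENCODE M21, and had log2 fold changes of -4.01 in KOTP over HetTP and -4.08 in KOTN over HetTN.

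Sf3a1, which encodes the largest SF3a subunit, was lower as well. It had 35.2, 53.3, 41.02 and 24.8 CPM in KOTP libraries, against 87.7, 83.00, 119.7 and 153 CPM in HetTP libraries. It had 35.7, 34.6, 27.6 and 40.1 CPM in KOTN libraries, against 77.5, 87.7, 91.3 and 69.9 CPM in HetTN libraries. The groups did not overlap in either comparison. Its log2 fold change was -1.30 ± 0.25 (SE) in KOTP over HetTP cells (edgeR, adjusted p = 0.00189) and -1.16 ± 0.25 in KOTN over HetTN cells (adjusted p = 0.00616). The third SF3a subunit, Sf3a3, did not pass edgeR's test with TMM in either comparison, but passed as lower in KOTP cells without HetTP 1 and without scaling factors. It had 144 ± 7.21 CPM in KOTP and 224 ± 62.9 CPM in HetTP libraries, and 157 ± 12.9 CPM in KOTN and 208 ± 39.7 CPM in HetTN libraries (SD, n = 4 each).

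Sf3b4, an RNA-binding SF3b subunit, had 48.9, 37.9, 19.4 and 13.96 CPM in KOTP libraries, against 159, 186, 104 and 156 CPM in HetTP libraries. It had 58.7, 28.9, 19.9 and 31.5 CPM in KOTN libraries, against 157, 171, 101 and 241 CPM in HetTN libraries. Homozygous libraries were again all below the heterozygous ones. The log2 fold changes were -2.12 ± 0.39 (adjusted p = 0.00129) in KOTP over HetTP and -2.19 ± 0.39 (adjusted p = 0.00133) in KOTN over HetTN. Sf3b3, a scaffold subunit of SF3b, had 105, 103, 113 and 89.00 CPM in KOTP libraries, against 242, 260.00, 159 and 233 CPM in HetTP libraries, with no overlap and a log2 fold change of -0.90 ± 0.16 (adjusted p = 0.00122). In KOTN libraries it had 105 ± 10.6 CPM, against 154 ± 27.01 CPM in HetTN libraries, also without overlap, and did not pass edgeR's test there (-0.47 ± 0.16, adjusted p = 0.0723), where it passed with DESeq2, without scaling factors, without HetTN 3 and without HetTP 3.

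Sf3b1, the subunit that holds the branch point adenosine, had 961, 868, 806 and 843 CPM in KOTP libraries, against 761, 797, 849 and 687 CPM in HetTP libraries. These groups overlapped, and the log2 fold change was 0.39 ± 0.10 (adjusted p = 0.0146), a call that was lost without KOTP 1, the highest library, and without scaling factors. Between KOTN and HetTN cells Sf3b1 was not called (0.15 ± 0.10, adjusted p = 0.409). Sf3b2, a subunit named here after its values were seen, had 247, 243, 216 and 206 CPM in KOTP libraries, against 529.7, 397, 351 and 370.1 CPM in HetTP libraries. Its log2 fold change was -0.63 ± 0.16 (adjusted p = 0.0184), and the call was lost without HetTP 1, KOTP 3 or KOTP 4. Beside Sf3a2, the log2 fold changes of SF3a and SF3b subunits in KOTP over HetTP lay between -2.12 for Sf3b4 and 0.39 for Sf3b1, and differences between subunits were not tested.

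**Figure D2:**
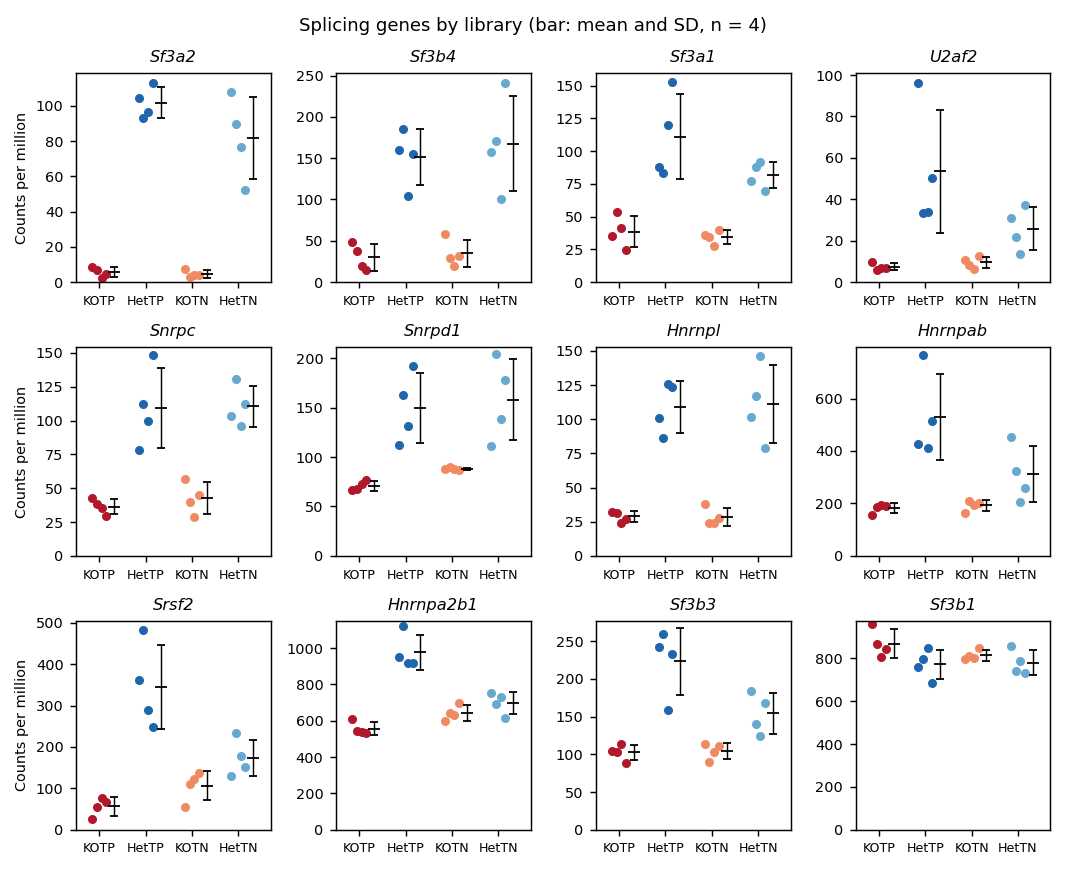
CPM (y axis, from 0) of 12 genes in the 4 KOTP, 4 HetTP, 4 KOTN and 4 HetTN libraries (x axis), with points for single libraries and a bar for the mean and SD (n = 4). Homozygous libraries lie below the heterozygous ones of the same sort for Sf3a2, Sf3b4, Sf3a1, U2af2, Snrpc, Snrpd1 and Hnrnpl, while Sf3b1 overlaps.

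Of the U2AF genes, U2af2 encodes the large subunit that binds the polypyrimidine tract. It had 9.75, 6.01, 6.93 and 6.63 CPM in KOTP libraries, against 96.4, 33.5, 33.98 and 50.1 CPM in HetTP libraries. In KOTN libraries it had 10.8, 8.24, 6.34 and 12.4 CPM, against 31.1, 21.6, 13.4 and 37.3 CPM in HetTN libraries. Neither pair of groups overlapped, though KOTN 4 at 12.4 CPM lay close to HetTN 3 at 13.4 CPM. The log2 fold changes were -2.63 ± 0.43 (edgeR, adjusted p = 0.000495) in KOTP over HetTP and -1.36 ± 0.41 (adjusted p = 0.0391) in KOTN over HetTN. The call in KOTN cells was lost without HetTN 1, without HetTN 4, when any 1 KOTN or KOTP library was left out, and under 4 other settings.

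U2af1, the small subunit that reads the AG at the intron's end, was not called by edgeR with TMM in either comparison. It passed as lower in KOTP cells with the compared libraries alone, without scaling factors and without HetTN 4. In KOTN cells it passed as lower with DESeq2 and without HetTN 4. It had 68.3, 61.1, 66.2 and 80.2 CPM in KOTP libraries, against 142, 118, 111 and 114 CPM in HetTP libraries, which did not overlap (-0.59 ± 0.22, adjusted p = 0.101). In KOTN libraries it had 69.6, 75.5, 64.97 and 75.4 CPM, against 147, 154, 95.9 and 62.1 CPM in HetTN libraries, which overlapped (-0.59 ± 0.22, adjusted p = 0.0943). The third gene, U2af1l4, was at most 0.37 CPM in any library, shares coding bases with another annotated gene and was not tested.

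Among the Sm and snRNP core proteins, 2 of 11 tested were lower in KOTP cells and 3 of 11 in KOTN cells. Of all genes 5.22% and 4.88% were lower. Snrpc, the U1-C protein that steadies the pairing of U1 with the intron's start, had 43.1, 38.2, 35.2 and 29.4 CPM in KOTP libraries, against 77.9, 112, 99.4 and 148 CPM in HetTP libraries. It had 56.8, 39.9, 28.8 and 45.2 CPM in KOTN libraries, against 104, 131, 95.7 and 112 CPM in HetTN libraries. No homozygous library reached a heterozygous one. The log2 fold changes were -1.36 ± 0.24 (adjusted p = 0.000894) in KOTP over HetTP and -1.29 ± 0.24 (adjusted p = 0.00177) in KOTN over HetTN. The other U1 gene on the list, Snrpa (U1-A), was not called, with 171 ± 8.21 CPM in KOTP and 215 ± 35.03 CPM in HetTP libraries, and 199.7 ± 12.9 CPM in KOTN and 251 ± 80.6 CPM in HetTN libraries (SD, n = 4 each).

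Snrpd1, a subunit of the Sm ring that most spliceosomal snRNPs carry, had 66.8, 67.3, 72.5 and 77.1 CPM in KOTP libraries, against 112, 163, 131 and 192 CPM in HetTP libraries. KOTN libraries held 87.8, 89.8, 88.3 and 86.9 CPM, against 111, 204, 139 and 178 CPM in HetTN libraries. All KOTP libraries lay below HetTP and all KOTN libraries below HetTN. The log2 fold changes were -0.85 ± 0.21 (adjusted p = 0.0114) and -0.77 ± 0.21 (adjusted p = 0.0230), and the call in KOTN cells was lost without HetTN 2, without HetTN 4, when any 1 KOTN library was left out, and with the compared libraries fitted alone. Snrpe, another Sm ring subunit, was called in KOTN cells, with 163, 177, 159 and 155 CPM against 262, 225, 263 and 357 CPM in HetTN libraries (-0.68 ± 0.18, adjusted p = 0.0219), and this call was lost without HetTN 4 or without KOTN 1, 3 or 4. Snrpb, which encodes the SmB and SmB' ring subunits, was not called. It had 504 ± 20.2 CPM in KOTP and 553 ± 49.4 CPM in HetTP libraries, and 548 ± 30.5 CPM in KOTN and 583 ± 111 CPM in HetTN libraries (SD, n = 4 each).

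Per kilobase of coding sequence, Snrpg, an Sm ring gene, had the highest mean of the list in each group. It had 1648 CPM per kilobase in KOTP and 1735 in HetTP libraries, and 1638 in KOTN and 1712 in HetTN libraries. Snrpn, which encodes SmN and takes the place of SmB in neurons, was listed at 0 counts in all 16 libraries. The same holds for Srsf1, Srsf12 and Hnrnpu. Srsf1 and Hnrnpu are used by nearly all cells, and only that they are listed at 0 can be said of them.

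PRPF factors belong mainly to the tri-snRNP and to the Prp19 complex. In KOTP cells 0 of the 13 were called. In KOTN cells 1 of the 13 was lower and 1 was higher (7.69% each). This is near the shares of all genes, 4.88% lower and 5.61% higher. The lower one was Prpf8, the U5 protein at the heart of the active spliceosome. It had 229, 256, 223 and 231 CPM in KOTP libraries, against 295, 225, 280.1 and 237 CPM in HetTP libraries (0.08 ± 0.14, adjusted p = 0.853). Its KOTN libraries held 256, 209.7, 192 and 193 CPM, against 405, 471, 344 and 407 CPM in HetTN libraries (-0.85 ± 0.14, adjusted p = 0.000868). HetTN stood apart from the other 3 groups, which overlapped one another.

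The higher one was Prpf18, a factor of the second splicing step, with 16.6, 20.1, 23.5 and 23.5 CPM in KOTN libraries, against 0, 0.859, 5.57 and 0.522 CPM in HetTN libraries. The log2 fold change was 3.60 ± 0.78 (adjusted p = 0.00660), and the call was lost when the 8 compared libraries were fitted alone. KOTP and HetTP libraries held 21.3 ± 2.89 and 28.5 ± 8.02 CPM (SD, n = 4 each), near the KOTN level. Prpf19, the ubiquitin ligase after which its complex is named, had 9.27 ± 1.77 CPM in KOTP and 6.66 ± 5.04 CPM in HetTP libraries, and 10.3 ± 1.73 CPM in KOTN and 15.5 ± 6.79 CPM in HetTN libraries, and was not called.

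Of the SR proteins, 1 of 9 tested was lower in KOTP cells and 2 of 9 were higher in KOTN cells. Of all genes 5.22% were lower in KOTP cells and 5.61% higher in KOTN cells. Srsf2 (SC35), which binds exonic enhancers, had 26.1, 55.4, 77.2 and 67.6 CPM in KOTP libraries, against 361, 482, 289 and 249 CPM in HetTP libraries. Every KOTP library was below every HetTP library, and the log2 fold change was -2.37 ± 0.33 (adjusted p = 0.000105). In KOTN libraries it had 55.4, 112, 123 and 137 CPM, against 130.3, 233, 178 and 153 CPM in HetTN libraries. Those groups overlapped through KOTN 4 and HetTN 1, and the gene was not called there (-0.63 ± 0.31, adjusted p = 0.235).

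Higher in KOTN cells were Srsf11, with 367, 356, 307 and 327 CPM against 224, 241, 241 and 174 CPM in HetTN libraries (0.72 ± 0.12, adjusted p = 0.000861), and Srsf5, with 257, 335, 314 and 333 CPM against 263, 138, 251 and 208 CPM in HetTN libraries (0.62 ± 0.15, adjusted p = 0.0136). Srsf11 did not overlap between these groups, whereas Srsf5 overlapped through KOTN 1 and HetTN 1 and was lost when the compared libraries were fitted alone. Srsf3 and Srsf7, shuttling SR proteins that also serve mRNA export, were not called by edgeR with TMM. Srsf3 had 217 ± 10.4 CPM in KOTP and 288 ± 26.1 CPM in HetTP libraries, and 250.02 ± 21.98 CPM in KOTN and 214 ± 22.1 CPM in HetTN libraries. Srsf7 had 307 ± 25.2 CPM in KOTP and 406 ± 50.9 CPM in HetTP libraries, and 345 ± 38.9 CPM in KOTN and 331 ± 14.8 CPM in HetTN libraries. Without scaling factors both were called lower in KOTP cells.

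The hnRNP proteins held 6 genes lower in KOTP and 3 lower in KOTN cells, of 18 tested, and none higher by edgeR. Of all genes 5.22% and 4.88% were lower, and 5.06% and 5.61% higher. Hnrnpl was lower in both comparisons. It encodes a protein known in T cells for the exclusion of CD45 variable exons. In KOTP libraries it had 32.3, 31.7, 24.03 and 27.4 CPM, against 101, 86.2, 126 and 124 CPM in HetTP libraries. Its level was 37.7, 24.1, 24.1 and 28.04 CPM in KOTN libraries, against 102, 117, 147 and 79.00 CPM in HetTN libraries. The highest homozygous library was KOTN 1, below the lowest heterozygous library, HetTN 4. The log2 fold changes were -1.70 ± 0.23 (adjusted p = 9.9e-05) and -1.88 ± 0.23 (adjusted p = 5.3e-05). Its paralog Hnrnpll, which in lymphocytes is known to act on CD45 and on the secreted form of immunoglobulin heavy chain RNA, was detected only in HetTP 1 at 0.747, HetTP 4 at 9.49 and HetTN 4 at 0.435 CPM and was not tested.

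Lower in KOTP cells were also Hnrnpab and Hnrnpul1. Hnrnpab, an A/B-type hnRNP, had 154, 187, 194 and 192 CPM in KOTP libraries, against 425, 766, 411 and 514 CPM in HetTP libraries (-1.31 ± 0.21, adjusted p = 0.000357). Hnrnpul1 had 32.7, 27.4, 27.9 and 26.5 CPM in KOTP libraries, against 104, 116, 60.3 and 105 CPM in HetTP libraries (-1.52 ± 0.33, adjusted p = 0.00530). Neither gene overlapped between these groups. In the tdTomato-negative cells neither was called by edgeR, and both overlapped. There Hnrnpab passed as lower with DESeq2, without scaling factors, without HetTN 3 and without HetTP 2, and Hnrnpul1 without HetTN 3 and without HetTN 4. Hnrnpab had 193 ± 20.2 CPM in KOTN and 311 ± 107 CPM in HetTN libraries, and Hnrnpul1 had 27.1 ± 2.51 CPM in KOTN and 52.9 ± 34.1 CPM in HetTN libraries (SD, n = 4 each).

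The A/B-type genes that bind and help to package most nuclear transcripts had smaller differences. Hnrnpa2b1 had 610.3, 541, 539.8 and 532 CPM in KOTP libraries, against 951, 1119.6, 920.1 and 916 CPM in HetTP libraries (-0.59 ± 0.10, adjusted p = 0.000864). Hnrnpa1 had 194, 196, 183 and 178 CPM in KOTP libraries, against 278, 398, 304 and 312 CPM in HetTP libraries (-0.56 ± 0.13, adjusted p = 0.00740). Hnrnpa3 had 115, 89.2, 93.4 and 91.6 CPM in KOTP libraries, against 228, 209, 163 and 156 CPM in HetTP libraries (-0.73 ± 0.16, adjusted p = 0.00451). In each of the 3 all KOTP libraries lay below all HetTP libraries. In KOTN over HetTN their log2 fold changes were -0.03 for Hnrnpa2b1, -0.36 for Hnrnpa1 and -0.36 for Hnrnpa3. None of the 3 passed edgeR's test with TMM on all libraries there. Hnrnpa1 passed as lower there with DESeq2, without scaling factors and without HetTP 2. Several hnRNP and Sm genes have processed copies elsewhere in the genome, and their values are uncertain, as it is not stated how multi-mapping reads were treated.

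In KOTN cells Hnrnpd (AUF1), which also binds AU-rich RNA, had 44.1, 44.2, 46.4 and 46.6 CPM, against 90.6, 77.2, 101 and 74.7 CPM in HetTN libraries (-0.83 ± 0.22, edgeR adjusted p = 0.0214). Hnrnph2, a G-run binding hnRNP, had 45.8, 60.2, 59.9 and 55.4 CPM in KOTN libraries, against 121, 91.3, 77.7 and 84.5 CPM in HetTN libraries (-0.66 ± 0.19, edgeR adjusted p = 0.0299). Neither overlapped, but both calls were lost when any 1 KOTN library was left out. That of Hnrnpd was also lost without HetTN 3, and that of Hnrnph2 without HetTN 1 and under 5 other settings. Hnrnpk and Hnrnpc were not called by edgeR with TMM, but Hnrnpk passed as lower in KOTP cells with DESeq2 and without scaling factors, and Hnrnpc as higher in KOTN cells with upper quartile scaling. Hnrnpk had 678 ± 48.6 CPM in KOTP and 990.3 ± 138 CPM in HetTP libraries, and 716 ± 98.9 CPM in KOTN and 784 ± 118 CPM in HetTN libraries. Hnrnpc had 337 ± 16.5 CPM in KOTP and 329 ± 34.8 CPM in HetTP libraries, and 354 ± 25.1 CPM in KOTN and 307 ± 40.3 CPM in HetTN libraries (SD, n = 4 each).

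Without KOTN 1, KOTN 3 or KOTN 4 the count of genes called in KOTN over HetTN was 9 in place of 14. Over all genes, 728 were called without KOTN 1, 608 without KOTN 3 and 629 without KOTN 4, in place of 1121. With the 8 compared libraries fitted alone the count on the list was also 9. In the fit of the compared libraries 7.3% of all genes were called.

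Read counts summed over all 68 genes averaged 9466 ± 133 CPM in KOTP and 13139 ± 899.7 CPM in HetTP libraries, and 9946 ± 302 CPM in KOTN and 11661 ± 391 CPM in HetTN libraries (SD, n = 4 each). No homozygous library reached a heterozygous one. The SF3 class summed to 1718 ± 88.1 CPM in KOTP and 2304 ± 119 CPM in HetTP libraries. The hnRNP class summed to 3096 ± 106 CPM in KOTP and 4827 ± 439.5 CPM in HetTP libraries. Both stood apart between these groups, and between KOTN and HetTN as well. The SR class summed to 1645 ± 69.7 CPM in KOTP and 2305 ± 193 CPM in HetTP libraries that stood apart, and 1807 ± 131 CPM in KOTN and 1651 ± 101 CPM in HetTN libraries that overlapped. For a difference of the genotype effect between the sorts, edgeR called none of the 9 SR genes tested, and DESeq2 called Srsf2. By edgeR, 4 of the 9 had an unadjusted p under 0.05, where 9.28% of all genes had one. These sums are shares of the library total, without TMM factors. Those factors were 0.908 to 0.961 in KOTP and 1.07 to 1.12 in HetTP libraries, and 0.931 to 0.971 in KOTN and 0.963 to 1.11 in HetTN libraries. Read without them, KOTP values stand lower against HetTP than in the TMM-scaled fold changes, and some gaps between the libraries may not hold after scaling. Single genes read in this way did not overlap and were lower in KOTP libraries for 26 of the 62, where 13.8% of all genes did so, and in KOTN libraries for 21 of the 62, where 8.5% did. They did not overlap and were higher in KOTP for 0 of the 62 (7.06% of all genes) and in KOTN for 3 (10.4%).

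**Figure D3:**
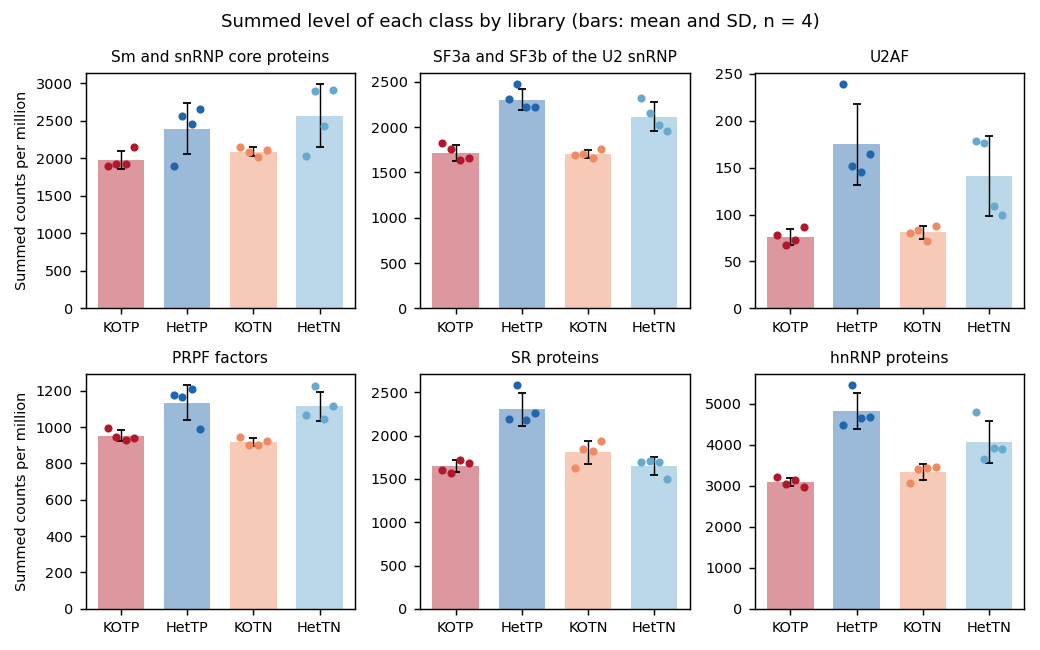
CPM summed over the genes of each class (y axes, from 0) in KOTP, HetTP, KOTN and HetTN libraries (x axes), with bars for the mean, error bars for the SD (n = 4) and points for libraries. The SF3, U2AF and hnRNP classes lie lower in both homozygous groups without overlap, and the SR class does so in the tdTomato-positive cells, while KOTN and HetTN overlap there.

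Fold change was set beside the GC content of the coding sequence, a property the choice of genes did not use. Across the 62 genes, which share their libraries and are not independent replicates, Spearman's rho between these measures was -0.31 in KOTP over HetTP and -0.37 in KOTN over HetTN. Across 10118 tested genes with an annotated coding sequence it was -0.08 and -0.01. Without Sf3a2 it was -0.28 and -0.34 over the other 61 genes. Sf3a2 has a coding GC content of 62.6%, Srsf2 of 68.5%, Sf3b4 of 60.3%, and Sf3b1 of 44.4%. The genes lower in KOTP cells had a median of 55.3% and those not called 50.2%. Of the 6 genes at 60% or more beside Sf3a2, 3 were lower in KOTP cells and 2 in KOTN cells, where 8.18% and 6.67% of all 1064 such genes were lower. Hnrnpa0, the most GC-rich of the list at 71.9%, was not called by edgeR (-0.25 ± 0.82 in KOTP over HetTP and -0.09 ± 0.83 in KOTN over HetTN), nor were Sf3b5 and Snrpb, at 61.6% and 60.2%. Whether GC content plays a part in the genotype differences was not tested.

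**Figure D4:**
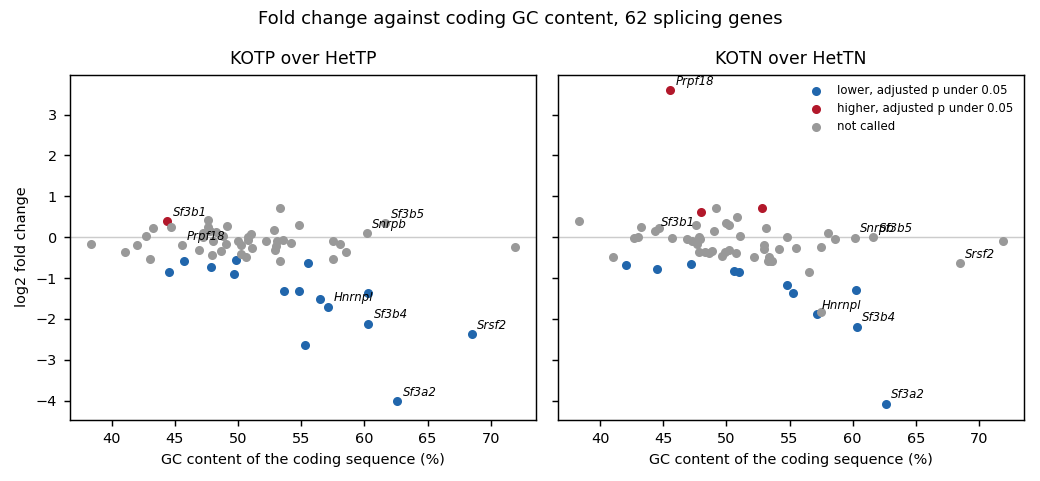
GC content of the coding sequence in percent (x axis) and log2 fold change (y axis) of 62 genes in KOTP over HetTP (left) and KOTN over HetTN (right), coloured by the edgeR call. Most points lie near 0, but of the 7 genes at 60% or more, Sf3a2 among them, 4 were called lower on the left and 3 on the right. The lowest points, among them Sf3a2, Sf3b4 and Hnrnpl, lie towards the high end, while Hnrnpa0, the farthest right, lies near 0.

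Other genes of the splicing machinery were taken from a list of 105, of which 104 were in the tables and 98 were tested. Of the 98, 10 were lower and 1 was higher in KOTP cells (10.2% and 1.02%), where 5.22% and 5.06% of all genes were. In KOTN cells 11 were lower and 3 were higher (11.2% and 3.06%), where 4.88% and 5.61% of all genes were. The 98 had median log2 fold changes of -0.06 and -0.04. Wbp11, a spliceosome-associated protein, averaged 24.4 ± 5.39 CPM in KOTP and 97.8 ± 14.5 CPM in HetTP libraries (log2 fold change -1.77, adjusted p = 0.000219). In KOTN libraries it averaged 20.7 ± 4.79 CPM, and in HetTN libraries 95.99 ± 34.96 CPM (-2.12, adjusted p = 5.8e-05). Pcbp1, a poly(C)-binding regulator, was also lower in both, at -1.29 in KOTP over HetTP (adjusted p = 5.3e-05) and -0.90 in KOTN over HetTN (adjusted p = 0.00177).

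Ptbp1, which represses many exons, was lower in KOTP cells (-1.26, adjusted p = 0.00545, libraries overlapping). Ewsr1, an RNA-binding protein of the FET family, was lower in KOTP cells (-0.84, adjusted p = 0.00251) and in KOTN cells (-0.70, adjusted p = 0.0115). Snrnp200, the helicase that unwinds U4 from U6, was lower in KOTN cells (-1.06, adjusted p = 0.000935). Khdrbs1 (Sam68) was lower in KOTP cells (-0.79, adjusted p = 0.0206) and in KOTN cells (-1.03, adjusted p = 0.00458). The 1 gene higher in KOTP cells was Snrnp25, of the minor spliceosome (0.97, adjusted p = 0.0315, libraries overlapping). Higher in KOTN cells by edgeR were Fnbp4 (0.73, adjusted p = 0.00896) and Mbnl1 (1.05, adjusted p = 0.0192, libraries overlapping), a regulator of developmental exons. Snw1 (SKIP), a protein of the active spliceosome, was also higher there (0.82, edgeR adjusted p = 0.0271). In the tdTomato comparisons edgeR called 0 of the 98, with unadjusted p under 0.05 for 19 (19.4%) in HetTP over HetTN, where 16.2% of all genes had one, and for 0 in KOTP over KOTN, where 1.56% had.

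Between HetTP and HetTN cells, 4 of the 62 genes were called in the fit of all 16 libraries, where 1.07% of all genes were. Prpf18, Srsf11 and Srsf5 were higher and Prpf8 was lower in HetTP cells, with 0.599% of all genes higher and 0.468% lower. None of the 4 calls held when the 8 heterozygous libraries were fitted alone, where edgeR called 0 of 9703 genes, nor with voom, which called 6 genes in all (0.0561%) and none of the 62. In the fit of all libraries the spread is shared with the less variable homozygous libraries. The comparison also shares its HetTN libraries with KOTN against HetTN, in which the same 4 genes were called.

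Prpf18 had 24.6, 39.6, 21.2 and 28.8 CPM in HetTP libraries, against 0, 0.859, 5.57 and 0.522 CPM in HetTN libraries (3.84 ± 0.79, adjusted p = 0.0259). Prpf8 had 295, 225, 280.1 and 237 CPM in HetTP libraries, against the 406 ± 51.99 CPM of HetTN libraries (-0.77 ± 0.14, adjusted p = 0.0155). Both stood apart between the groups. Srsf11 had 388, 361, 321 and 355 CPM in HetTP libraries (0.58 ± 0.12, adjusted p = 0.0286), all above its HetTN values. Its call was lost without KOTN 2, without KOTN 4 or without any 1 KOTP library. Srsf5 had 379, 395, 335 and 366 CPM in HetTP libraries (0.66 ± 0.15, adjusted p = 0.0415), also above its HetTN values. The Srsf5 call was lost without HetTP 1, 2 or 4, and when any 1 homozygous library was left out. Without HetTN 1 the count of genes called was 9 in place of 4, and over all genes it was 488 in place of 114. By CPM alone, 8 of the 62 did not overlap and were higher in HetTP libraries, where 3.45% of all genes did so, and Prpf8 was the 1 gene lower without overlap, where 1.24% did so. Beside the 3 called genes, the 8 held, among others, Hnrnpa2b1, Srsf2, Srsf3 and Prpf39, which did not pass edgeR's test.

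**Figure D5:**
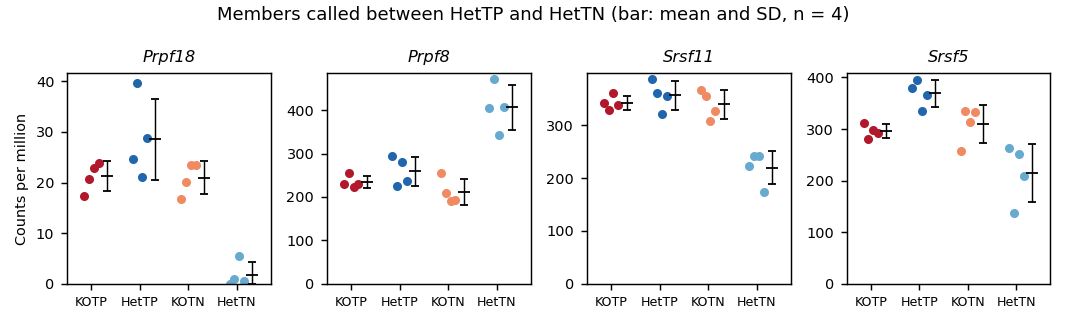
CPM (y axis, from 0) of the 4 genes called between HetTP and HetTN in the fit of all libraries, in KOTP, HetTP, KOTN and HetTN libraries (x axis), with points for libraries and a bar for the mean and SD (n = 4), whose lower end stops at 0 for Prpf18 in HetTN. The HetTN libraries lie apart from HetTP in all 4, low for Prpf18, Srsf11 and Srsf5 and high for Prpf8.

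Between KOTP and KOTN cells edgeR called none of the 62, with 0.0187% of all genes called. Of the 62, 1 (1.61%) had an unadjusted p under 0.05, against 1.56% of all genes. That gene was Srsf2, with 26.1, 55.4, 77.2 and 67.6 CPM in KOTP libraries, against 55.4, 112, 123 and 137 CPM in KOTN libraries. These overlapped, and its log2 fold change was -0.88 ± 0.32. Next by p were Hnrnpa2b1 at -0.19 ± 0.10 and Hnrnpm, an hnRNP that binds GU-rich RNA, at -0.22 ± 0.13 (edgeR, adjusted p = 1 for all 3). Hnrnpm had 232, 246, 233 and 240.1 CPM in KOTP libraries, against 288, 278, 277 and 277 CPM in KOTN libraries, which did not overlap. With the 8 homozygous libraries fitted alone, 236 genes were called (2.37%) and again none of the 62. DESeq2 called none of the 62, and voom called Srsf2 and Hnrnpa2b1, where it called 3.14% of all genes. By CPM alone, 5 of the 62 did not overlap and were lower in KOTP libraries, where 4.51% of all genes did so, and none was higher without overlap, where 2.52% were. The 5 were Hnrnpm, Snrpd1, Snrpa, Hnrnpa1 and Prpf38a. Snrpd1 averaged 70.9 ± 4.87 CPM in KOTP and 88.2 ± 1.201 CPM in KOTN libraries (SD, n = 4 each).

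The tdTomato difference was also compared between the genotypes, as KOTP over KOTN relative to HetTP over HetTN. EdgeR called none of the 62, with 0.122% of all genes called. Of the 62, 10 (16.1%) had an unadjusted p under 0.05, against 9.28% of all genes. The smallest p was that of Prpf8, at 0.93 ± 0.20 (adjusted p = 0.0876), followed by Srsf2 at -1.74 ± 0.44 (adjusted p = 0.157) and Hnrnpa2b1 at -0.56 ± 0.14 (adjusted p = 0.157). DESeq2 called these 3 and Prpf18, where it called 1.84% of all genes. Prpf8 also passed in edgeR without HetTN 1 and without HetTN 3. That U2af2, Srsf2, Hnrnpab and Hnrnpa2b1 had larger fold changes in the tdTomato-positive than in the negative cells was thus not called as a difference between them by edgeR.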

How the data were processed

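Messenger RNA of 16 libraries of sorted spleen B cells was amplified with Smart-seq2, per the labels' protocols. Per the submitters' processing notes, reads were handled with Trim Galore, STAR 2.2.0, featureCounts and mm10. The strand setting and the treatment of reads that map to several places are not given in the sources used here. The authors deposited 1 table per genotype whose raw counts cover coding sequence, per the file headers. A second block of columns, a per-million score of mapped reads made by the authors, was compared with the counts only to find the divisor of each library and entered no test.

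Each table had 22680 entries, which were matched by symbol, without the 4 entries of duplicated names and the 1 name without a partner, which gave 22675 genes. Counts were scaled with TMM (factors 0.908 to 1.12), filtered by group with filterByExpr and tested with edgeR 4.0.16 (R 4.3.3), by the robust quasi-likelihood test. The fit had 1 mean per group over the 16 libraries and 12 residual degrees of freedom. Benjamini-Hochberg adjustment ran over the 10687 genes tested, and an adjusted p under 0.05 was called. SE is the fold change divided by the root of the test's F. CPM is the per-million count of the library total, which ranged from 7748787 to 15742445, without TMM. No 2 libraries agreed within sampling noise. Positions, coding lengths and GC content are from GENCODE M21 (GRCm38). On simulated data with the spread of each genotype, the fit of all libraries called more unchanged genes between HetTP and HetTN than in the other comparisons, and the tdTomato calls of heterozygous cells are given with the fit of their own 8 libraries beside them.

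The members and lists were chosen with earlier results of these data known. Named genes were those past the threshold without overlap between libraries in a genotype comparison, up to 12 in each direction, those called or with the 3 smallest p in the tdTomato comparisons, 22 defining members, and up to 4 rises and 4 falls of the other splicing genes. The alternatives tried were upper quartile scaling, RLE scaling, a filter at 5 CPM in 4 libraries, no filter at all, DESeq2 1.42.0, limma 3.58.1 voom with sample weights, a replicate block, the compared libraries alone, and each library left out. Library totals without scaling factors were added after the data were seen. The separate values of 1 member are not reported here.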

Additional observations from a re-analysis of the deposited data

Results flagged for a closer look

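In 8 of 128 groups of 4 libraries examined, the highest or lowest library lay farther from the rest than Dixon's critical value allows, and chance flags about 1 in 20 groups. KOTP 1 stood apart for Hnrnpa2b1 (610.3 CPM, next 541 CPM), Hnrnpa3 (115 CPM, next 93.4 CPM) and Hnrnpab (154 CPM, next 187 CPM). KOTN 1 was low for Hnrnpk (569 CPM, next 745 CPM) and Srsf3 (217 CPM, next 260.3 CPM). HetTP 2 was high for Hnrnpa2b1 (1119.6 CPM, next 951 CPM). HetTN 1 was high for Hnrnpa3 (186 CPM, next 128 CPM), and HetTN 3 was high for Prpf18 (5.57 CPM, next 0.859 CPM).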

How the results depend on the processing

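Of 34 calls of single genes, 21 kept their direction and their side of the threshold in every alternative run, 13 were lost in at least 1 and 0 changed sign. Of 27 named results that were not called, 12 passed the threshold in at least 1 alternative and 5 changed sign. The causes were not tested. In KOTP over HetTP, 16 genes were called, 25 without scaling factors, and between 15 and 16 with 1 of the compared libraries left out. The count was 17 without HetTN 1 or HetTN 2, and 18 without HetTN 4. In KOTN over HetTN, 14 were called, 9 with the compared libraries alone, and between 9 and 16 with 1 library left out. In HetTP over HetTN, 4 were called, 0 with the compared libraries alone and 0 with voom. The count was between 3 and 9 with 1 of the compared libraries left out. It was 2 without KOTN 2, without KOTN 4 or without any 1 KOTP library. In KOTP over KOTN, 0 were called by edgeR, 2 by voom, and 0 whichever library was left out. In the difference of the tdTomato effects, 0 were called by edgeR, 4 by DESeq2, and between 0 and 2 with 1 library left out (1 without HetTN 1 and 2 without HetTN 3).

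The results that changed sign lay near 0. Without scaling factors, the log2 fold change of KOTP over HetTP was -0.14 for Snrpb and -0.15 for Prpf8. With upper quartile scaling, that of KOTN over HetTN was 0.067 for Snrpb, 0.052 for Hnrnpa2b1 and 0.041 for Hnrnpk, and with voom it was 0.016 for Snrpb. With 1 library left out it lay between -0.17 and 0.070 for Snrpb, between -0.061 and 0.00646 for Hnrnpa2b1, and between -0.11 and 0.051 for Hnrnpk.

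Groups share replicate numbers, but libraries of the same number did not deviate together: the correlation of their deviations from the group means was at most 0.09, so the numbers were not taken to pair the samples. With the replicate number as a replicate block, 16 genes were called in KOTP over HetTP, 13 in KOTN over HetTN (without Hnrnph2), 2 in HetTP over HetTN (Prpf18 and Prpf8), 0 in KOTP over KOTN and 0 in the difference, and Snrpb was at 0.00993 in KOTN over HetTN. Low counts limit Prpf18, Prpf19, Prpf40b, Hnrnpa0 and Hnrnpul2, which had less than 50 CPM in every library. Reads carried no molecular identifiers, so counts are not independent molecules.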
